A study of Homo sapiens with 32 samples.

Results

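The EGF-like ligands and their ERBB receptors were followed in the human granulosa cell line HGrC1, which is immortalized and was derived from non-luteinized cells, across long-term exposure to perfluorooctane sulfonate (PFOS). The members were 10 genes chosen by symbol, of 47137 gene entries in the deposited tables, 18583 of which held values. They comprised 6 ligands (AREG, EREG, HBEGF, BTC, TGFA and NRG1), 3 receptors (EGFR, ERBB2 and ERBB3) and ERRFI1, the inhibitor that binds the receptors. All 10 had values. Expression was measured by RNA sequencing in 32 libraries, 4 in each of 8 groups. Cells from 4 vials frozen on different dates were thawed into separate flasks, and the cells of each flask were divided into a vehicle control with 0.05% DMSO and cultures with PFOS at 1 of 3 doses, which were 0.01 µM, 0.1 µM and 1 µM. PFOS was added again at each passage, and libraries were made from every culture at 6 and at 12 weeks. All groups were kept in medium with 10% fetal bovine serum, which itself carries growth factors. For the hormone added to all groups at 100 nM, the sample labels name estradiol and the study's methods name testosterone. The 4 replicates of a group are therefore cultures from vials of the same cell line. The p-values measure the spread between such cultures and their libraries within groups.

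EGF-like ligands are made as membrane proteins and are released by metalloproteases, chiefly ADAM17, after which they bind EGFR, ERBB3 or ERBB4 on the same or a neighbouring cell. ERBB2 has no known soluble ligand and acts as the partner of the other receptors, whereas ERBB3 has an impaired kinase and signals through its partner. In the preovulatory follicle, the surge of luteinizing hormone induces AREG, EREG and BTC in granulosa cells, and their signal through EGFR carries the surge to the cumulus cells and the oocyte. ERRFI1, also called MIG6, is induced by the activated receptor and inhibits its kinase, which makes it a feedback inhibitor and a common readout of receptor activity.

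The libraries held 17907057 to 18553350 counts each. The 3 counts that a count of 0 allows then correspond to 0.162 to 0.168 CPM, which is the count scaled to the library's total. Of 12 granulosa cell markers, 11 had values. GATA4 (2040 to 2816 counts per library) and WT1 (1012 to 1450) were well detected, FOXL2 had 10 to 37 counts, CYP19A1 was at 0 in 31 of 32 libraries, and the gonadotropin receptor genes FSHR and LHCGR had no values in the tables. Summed counts of 6 hepatocyte transcripts, such as ALB and AFP, were 0 to 1 in the 8 libraries of the control and of 0.01 µM at 6 weeks, 72 to 174 in 23 other libraries and 919 in replicate 3 of the control at 12 weeks. That library stood apart, and every edgeR fit that used it was repeated without it. Whether the source of these transcripts bears on the members was not tested.

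AREG, EREG and BTC are neighbours on chromosome 4, where they and EPGN, the gene of the ligand epigen, are the 4 protein-coding genes within 486 kb (GRCh38.p14). The 80 bases before the RefSeq start of 4 members are shown 5′ to 3′, for the pair of surge-induced ligands, for the ligand that was expressed and for the feedback inhibitor, since the results turn on these. Capitals mark matches, on either strand, to a cAMP response element (TGACGTCA), a TATA box (TATAAA) or a GC box (GGGCGG).
AREG, chr4:74445056-74445135, + strand: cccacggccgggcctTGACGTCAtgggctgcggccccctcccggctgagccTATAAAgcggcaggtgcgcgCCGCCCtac
EREG, chr4:74365065-74365144, + strand: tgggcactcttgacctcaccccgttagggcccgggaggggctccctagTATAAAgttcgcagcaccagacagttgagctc
HBEGF, chr5:140346604-140346683, - strand: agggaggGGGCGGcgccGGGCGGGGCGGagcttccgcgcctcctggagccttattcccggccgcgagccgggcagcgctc
ERRFI1, chr1:8026310-8026389, - strand: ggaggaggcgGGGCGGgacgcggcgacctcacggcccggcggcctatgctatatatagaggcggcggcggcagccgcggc

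Among the 8 members whose promoters were read, only that of AREG held the full cAMP response element. Through this sequence the second messenger of luteinizing hormone acts on many genes. A promoter was taken as 250 bases before to 50 after the start. Of 35116 promoters of this length, 1.85% held it, 11.5% held a TATA box, 45% held a GC box and 4.95% held the AP-1 sequence TGACTCA. The promoters of AREG and EREG each held the letters TATAAA. That of HBEGF held 5 GC boxes, the last 2 of which share a base, and that of ERRFI1 held 1. Other forms of the TATA box were not searched. The printed ERRFI1 window holds tatatata, which this search does not mark, so these promoters are not sorted into types here. Promoters were read for 8 members, and those of NRG1 and ERBB3 were not examined. A match describes these letters only and is not a measured binding site.

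Of the 6 ligands, HBEGF alone was expressed at a level that could be tested. HBEGF encodes heparin-binding EGF-like growth factor, which binds EGFR and ERBB4. It had 710 to 1141 counts per library and a median of 37.7 TPM, a scale that corrects for transcript length, and it supplied 76.8 to 92.0% of the summed TPM of the 10 ligands that had values. The next ligand was EPGN, which was not among the members, with 38 to 162 counts. The surge-induced ligands were near or at 0 in every library. EREG had 6 counts in all 32 libraries together and was at 0 in 26 of them, and BTC had 3 counts in all and was at 0 in 29. TGFA, the classical autocrine ligand of EGFR, had 22 counts in all and at most 3 in a library. NRG1, the ligand of ERBB3 and ERBB4, had 110 counts in all and 0 to 9 in a library.

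**Figure D1:**
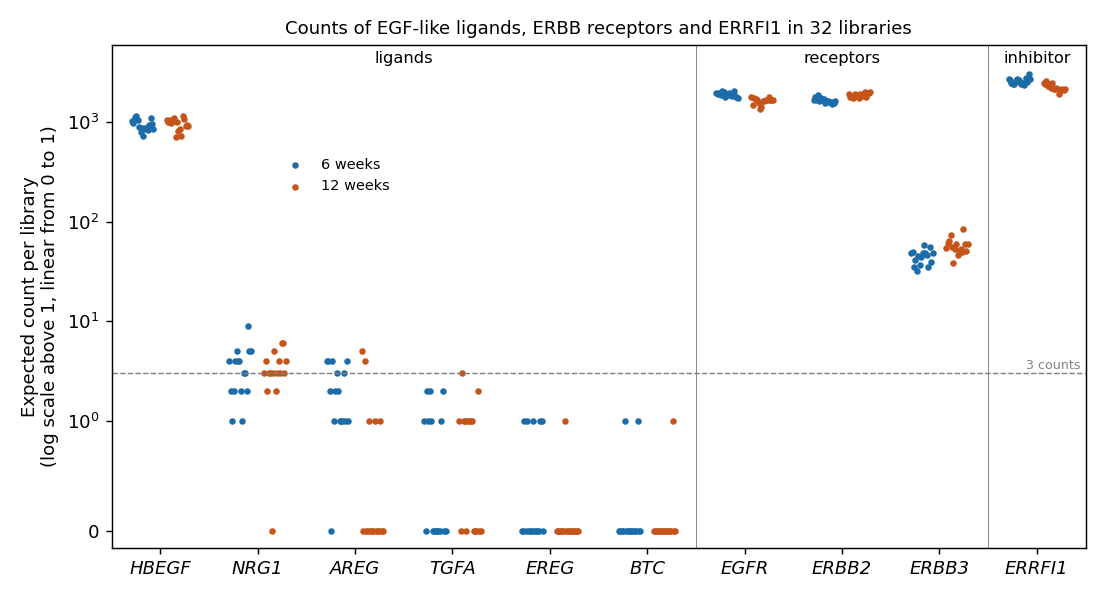
Expected count of each member in each of the 32 libraries, on an axis that is logarithmic above 1 and linear from 0 to 1, with 6 weeks in blue and 12 weeks in orange and the 3 counts that a count of 0 allows as a dashed line. HBEGF lies at 710 to 1141 counts while no other ligand exceeds 9, and EGFR, ERBB2 and ERRFI1 lie between 1361 and 3076.

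AREG, the ligand amphiregulin, had 46 counts in all, and its few counts were unevenly spread. In the control at 6 weeks it had 4, 4, 2 and 0 counts in vials 1 to 4, and in the control at 12 weeks 5, 0, 4 and 0. In the 12 libraries with PFOS at 6 weeks each had 1 to 4 counts, and in the 12 libraries with PFOS at 12 weeks 9 were at 0 and the 3 of vial 2 had 1 count each. The PFOS libraries thus held 24 counts in 12 of 12 libraries at 6 weeks and 3 counts in 3 of 12 at 12 weeks, where single libraries lie at or near the limit that a count of 0 allows. At 1 µM the counts were 3, 1, 4 and 1 at 6 weeks and 0, 1, 0 and 0 at 12 weeks. These did not overlap on the CPM scale, although both times held libraries with 1 count. Of all genes tested in edgeR, 16.1% lay wholly lower at 12 weeks at this dose. The exact two-sided permutation p for AREG was 0.0286, the smallest that 4 libraries against 4 allow. At 0.01 and 0.1 µM the exact permutation p was 0.0571 each. These are 3 of 60 comparisons made for the 5 sparse members. Their lowest Benjamini-Hochberg adjusted value was 0.686, which with so few libraries says nothing for or against a difference, since single comparisons could not pass. NRG1 had 9 counts in the control, 17 at 0.01 µM, 9 at 0.1 µM and 21 at 1 µM at 6 weeks. The exact permutation p against the control was 0.0571 at 0.01 and at 1 µM and 0.857 at 0.1 µM.

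Among the receptors, ERBB2 and EGFR were expressed together. On the TPM scale ERBB2 had 30.2 to 40.9 TPM (median 34.8) and EGFR 11.4 to 18.6 TPM (median 15.5), with the 2 ranges not overlapping. ERBB3 had 0.74 to 2.56 TPM (median 1.43), and ERBB4, which is not a member, had at most 9 counts. ERBB2 made up 62.2 to 72.5% of the summed TPM of the 4 receptors, EGFR 24.4 to 35.2%, and ERBB3 1.40 to 4.65%. ERRFI1 was the highest of the members at 55.0 to 84.5 TPM (median 67.9), rank 2048 of 18583 genes, and in each library its TPM was 3.57 to 5.70 times that of EGFR. Of the metalloproteases on the list of genes that release or carry the ligands, ADAM17 had 19.6 to 26.1 TPM and ADAM10 21.3 to 30.9 TPM. ADAM9 had 243 to 300 TPM and ADAM12 7.51 to 16.8 TPM.

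The first comparison asked whether PFOS changed the members at 6 weeks. A gene passed at a Benjamini-Hochberg adjusted p of 0.05 or less in edgeR's quasi-likelihood test over all genes tested, and fold changes are log2 values. The 5 members with enough counts to be tested were HBEGF, EGFR, ERBB2, ERBB3 and ERRFI1. Of these, 0 of 5 passed at 0.01 µM, where 0% of all genes passed, 0 of 5 at 0.1 µM, where 4.24% passed, and 0 of 5 at 1 µM, where 0.28% passed. At an unadjusted p under 0.05, HBEGF was past the threshold at 0.01 µM (9.6% of all genes), HBEGF and ERBB2 at 0.1 µM (20.8%), and ERBB2 and ERRFI1 at 1 µM (13.7%). With DESeq2 in place of edgeR, 1 member (HBEGF) passed at 0.1 µM and 0 at the other doses.

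HBEGF came closest at this time. Its level in the control was 55.9, 53.1, 62.3 and 63.0 CPM in vials 1 to 4, and at 0.1 µM it was 40.0, 48.6, 48.0 and 46.5 CPM. All 4 libraries at 0.1 µM lay below all 4 controls, as 6.32% of all genes did in this comparison. The log2 fold change was −0.36 (SE 0.096, 95% CI −0.56 to −0.15), that is 0.780 times the control, with an adjusted p of 0.0516 in edgeR and 0.00342 in DESeq2. Without vial 2 the edgeR adjusted p was 0.0319, and over all alternatives it lay between 0.00342 and 0.229.

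At the lower and the higher dose the HBEGF libraries overlapped the control. At 0.01 µM HBEGF measured 58.0, 48.6, 44.0 and 46.8 CPM (log2 −0.25, SE 0.095, edgeR adjusted p = 0.462), and at 1 µM 51.5, 60.4, 52.5 and 47.3 CPM (log2 −0.15, SE 0.094, edgeR adjusted p = 0.533). The level thus did not order by dose, and the difference of 1 from 0.1 µM (log2 0.21, 95% CI 0.00 to 0.42, edgeR adjusted p = 0.789) did not pass, in a comparison in which 0.0857% of all genes passed.

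ERBB2, the receptor without a ligand of its own, measured 91.1, 96.2, 92.8 and 103 CPM in the control at 6 weeks. It was 85.8, 89.1, 90.1 and 88.7 CPM at 0.1 µM, below every control library, as 6.32% of all genes were. At 1 µM it was 88.8, 83.9, 85.8 and 91.5 CPM, where 1 library lay above the lowest control. The log2 differences were −0.12 (SE 0.039, edgeR adjusted p = 0.0774) and −0.13 (SE 0.039, edgeR adjusted p = 0.134), and neither passed. EGFR stayed between 98.1 and 113 CPM in all 16 libraries of this time. ERRFI1 was 149, 143, 135 and 133 CPM in the control and 155, 141, 170 and 151 CPM at 1 µM (log2 0.14, SE 0.048, edgeR adjusted p = 0.200), while at 0.1 µM it was 138, 132, 137 and 132 CPM (log2 −0.06, SE 0.049, edgeR adjusted p = 0.525). All 4 libraries at 1 µM were above all 4 at 0.1 µM for ERRFI1, as 2.1% of all genes were, with a log2 difference of 0.20 (SE 0.048) that did not pass (edgeR adjusted p = 0.195).

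**Figure D2:**
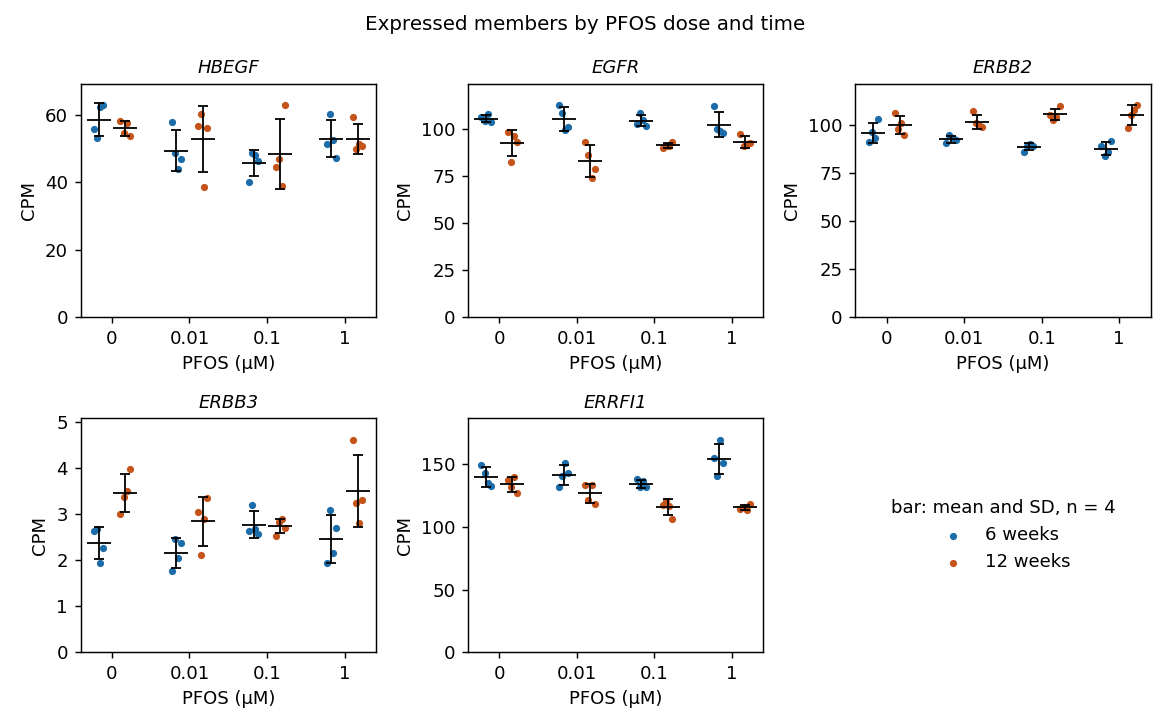
CPM of the 5 expressed members (vertical axes from 0) against PFOS dose, with each library as a point, 6 weeks in blue and 12 weeks in orange, and black bars for the mean and SD of n = 4. At 12 weeks the ERRFI1 points at 0.1 and 1 µM lie at 106 to 121 CPM, below the controls at 127 to 140 CPM, and ERBB2 lies higher at 12 than at 6 weeks at each PFOS dose.

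At 12 weeks the same comparison gave 0 of 5 members at 0.01 µM, where 0% of all genes passed, 1 of 5 at 0.1 µM, where 1.07% passed, and 0 of 5 at 1 µM, where 0.22% passed. At an unadjusted p under 0.05, EGFR was past the threshold at 0.01 µM (8.48% of all genes) and ERRFI1 at 1 µM (8.74%), and DESeq2 called 0 members at 0.01 µM and 1 (ERRFI1) at 1 µM. The member that passed at 0.1 µM was ERRFI1, the feedback inhibitor. In the control at 12 weeks it measured 137, 132, 140 and 127 CPM. At 0.1 µM it measured 118, 121, 117 and 106 CPM, and at 1 µM 114, 116, 114 and 119 CPM. All 8 libraries of these doses lay below all 4 controls, and the lowest control exceeded the highest of them, 121 CPM, by less than the range within the control. Of all genes, 3.86% lay wholly below the control at 0.1 µM and 3.34% at 1 µM.

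The log2 fold change of ERRFI1 was −0.22 at both doses (SE 0.051, 95% CI −0.32 to −0.11 each), a change of −13.9%. The edgeR adjusted p was 0.0417 at 0.1 µM and 0.100 at 1 µM, so only the first passed. DESeq2 gave 0.0168 at 1 µM, and the edgeR fit of all 32 libraries gave 0.0302. At 0.01 µM ERRFI1 was 133, 122, 134 and 119 CPM (log2 −0.08, SE 0.051, edgeR adjusted p = 0.667). The call at 0.1 µM was lost when any 1 vial was left out (edgeR adjusted p of 0.0723 to 0.436) and when replicate 3 of the control, the library with 919 counts of hepatocyte transcripts, was left out (log2 −0.19, edgeR adjusted p = 0.194).

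The ligand and the receptors did not pass at 12 weeks. HBEGF at 0.1 µM was 44.7, 47.0, 39.0 and 62.9 CPM against 58.3, 54.8, 57.5 and 53.6 CPM in the control (log2 −0.22, SE 0.140, edgeR adjusted p = 0.481), with vial 4 above every control and the others below. ERBB2 at 0.1 and 1 µM was on average slightly above its control (log2 0.07, SE 0.048, edgeR adjusted p of 0.468 and 0.680). For EGFR the fold change farthest from 0 was at 0.01 µM (log2 −0.16, SE 0.062, edgeR adjusted p = 0.565), and over the 6 comparisons of PFOS with control its log2 fold changes lay between −0.16 and 0.00. ERBB3, the neuregulin receptor, was lower at 0.1 µM than in the control in 4 of 4 vials, 2.74 ± 0.157 against 3.46 ± 0.410 CPM (mean ± SD, n = 4), but did not pass (log2 −0.34, SE 0.167, edgeR adjusted p = 0.336). Without replicate 3 of the control these 4 genes did not pass either, with log2 values of −0.20 for HBEGF, 0.08 for ERBB2 and −0.33 for ERBB3 at 0.1 µM and −0.14 for EGFR at 0.01 µM.

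**Figure D3:**
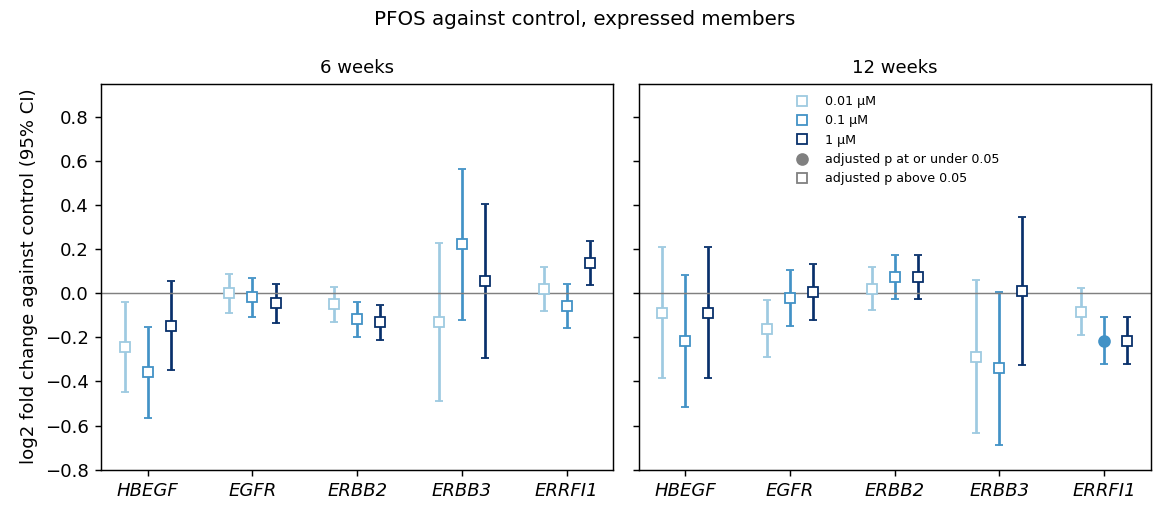
log2 fold changes of the 5 expressed members, PFOS over time-matched control, with 95% confidence intervals from edgeR, at 6 weeks (left) and 12 weeks (right), where filled circles passed the adjusted p of 0.05 and open squares did not. ERRFI1 at 0.1 µM and 12 weeks, at −0.22, is the filled point, and the intervals of ERBB3, the least expressed of the 5, are the widest.

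The design also asks whether the effect of PFOS differed between 6 and 12 weeks, which was tested as an interaction over all 32 libraries. Of the 5 members, 0 passed at 0.01 µM, where 0% of all genes passed, 0 at 0.1 µM, where 0.208% passed, and 1 at 1 µM, where 0.123% passed. At an unadjusted p under 0.05, 0 members were past the threshold at 0.01 µM (7.48% of all genes) and ERBB2, ERBB3 and ERRFI1 at 0.1 µM (14.5%). The member that passed at 1 µM was again ERRFI1. At 1 µM its change from the control was 10.1% at 6 weeks and −13.9% at 12 weeks, and the difference of the effects was −0.35 (log2, SE 0.072, 95% CI −0.50 to −0.20, edgeR adjusted p = 0.0277). At 0.1 µM the difference was −0.16 (SE 0.073, edgeR adjusted p = 0.303) and at 0.01 µM −0.10 (SE 0.072, edgeR adjusted p = 0.782). Leaving out 1 vial moved the log2 difference at 1 µM to between −0.42 and −0.26 and its adjusted p to between 0.0541 and 0.476, so that the call was lost each time, as it was without replicate 3 of the 12-week control (log2 −0.33, edgeR adjusted p = 0.0793). ERBB2 had the opposite sign, with differences of 0.19 at 0.1 µM (SE 0.060, edgeR adjusted p = 0.122) and 0.21 at 1 µM (SE 0.060, edgeR adjusted p = 0.159), and did not pass, although DESeq2 gave 0.0493 at 1 µM.

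The last comparison was of culture time within each dose. Between 6 and 12 weeks, 36.6% of all genes passed in the control, 42.7% at 0.01 µM, 40.3% at 0.1 µM and 30% at 1 µM. Of the 5 members, 2 passed in the control and 3 at each PFOS dose. None changed 2-fold. The same numbers passed without replicate 3 of the 12-week control, where the control changes were −0.21 for EGFR (edgeR adjusted p = 0.00607) and 0.54 for ERBB3 (edgeR adjusted p = 0.018). The labels give no date or batch of library preparation, so culture time and library handling cannot be told apart, and neither can fewer cells of a type and less RNA per cell in such bulk samples.

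EGFR was lower at 12 than at 6 weeks in 4 of 4 vials in each group, with no overlap. In the control it fell from 105 ± 1.99 to 92.5 ± 6.91 CPM (mean ± SD, n = 4, log2 −0.19, SE 0.055, edgeR adjusted p = 0.00631). It fell by 0.34 on the log2 scale at 0.01 µM (edgeR adjusted p = 5.09e-06) and by 0.19 at 0.1 µM (edgeR adjusted p = 0.00466). At 1 µM the difference was −0.14 (edgeR adjusted p = 0.0557), and it passed with the vial as replicate block (0.037). The call in the control was lost without vial 2 (edgeR adjusted p = 0.0996). The share of all genes that lay wholly lower at 12 weeks was 16.6% in the control, 17.4% at 0.01 µM, 20.1% at 0.1 µM and 16.1% at 1 µM.

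ERBB2 moved the other way where it moved. With PFOS it rose by 0.13 at 0.01 µM (log2, SE 0.043, edgeR adjusted p = 0.0104), by 0.25 at 0.1 µM (edgeR adjusted p = 1.36e-05) and by 0.27 at 1 µM (edgeR adjusted p = 1.06e-05). Its libraries did not overlap between the times at these doses, as for 15.8%, 19.5% and 14.4% of all genes that lay wholly higher. In the control its difference was 0.06 (SE 0.0425, edgeR adjusted p = 0.292), which passed without vial 4 (0.0401), and the call at 0.01 µM was lost without vial 1. That the control did not pass does not show that it differed from the PFOS groups, and the interactions given above did not pass. At 6 weeks the TPM of EGFR was 0.457 to 0.557 times that of ERBB2 in the 16 libraries, and at 12 weeks it was 0.336 to 0.446 times, so that the ratios of the 2 times did not overlap. This ratio was examined after the values of both genes were known.

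ERBB3 rose in the control, with no overlap (14.8% of all genes lay wholly higher), from 2.37 ± 0.347 to 3.46 ± 0.410 CPM (log2 0.54, SE 0.164, edgeR adjusted p = 0.00902) and at 1 µM from 2.47 ± 0.521 to 3.49 ± 0.781 CPM (log2 0.50, SE 0.163, edgeR adjusted p = 0.0182). At 0.01 µM the difference was 0.39 (SE 0.171, edgeR adjusted p = 0.0618), and at 0.1 µM it was −0.02 (2.77 ± 0.293 and 2.74 ± 0.157 CPM, edgeR adjusted p = 0.945). These levels rest on 32 to 84 counts per library, and the rise was lost without vial 3 or vial 4 in the control and without vial 1 or vial 3 at 1 µM, where it was also lost in a fit of the 8 libraries of that dose alone (edgeR adjusted p = 0.0548).

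ERRFI1 fell with time at each PFOS dose. Its log2 change was −0.16 at 0.01 µM (edgeR adjusted p = 0.0120), −0.22 at 0.1 µM (edgeR adjusted p = 0.00084) and −0.41 at 1 µM (edgeR adjusted p = 1.27e-07), the last from 154 ± 11.95 to 116 ± 2.22 CPM. In the control the difference was −0.06 (SE 0.051, edgeR adjusted p = 0.354). The call at 0.01 µM was lost without vial 2 or vial 4. HBEGF did not pass between the times in any group.

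The genes around the receptors were read from lists. The 11 proteins that cleave or carry the ligands, the 17 adaptors and kinases of the RAS-ERK cascade, 9 genes of the PI3K-AKT branch and 15 inhibitors and ubiquitin ligases of the receptors gave 4 calls in all over the 6 comparisons of PFOS with control, all of them at 0.1 µM and 6 weeks. There they were 4 of the 51 genes tested from these lists, 3 higher and 1 lower, beside the 4.24% of all genes that passed. CD9, a membrane partner of pro-HBEGF, had 220 CPM on average without and 244 CPM with 0.1 µM PFOS (log2 0.15, SE 0.040, edgeR adjusted p = 0.0374). SOS2, an exchange factor for RAS, rose by 0.20 (edgeR adjusted p = 0.0332), and MAP2K2, the kinase MEK2, fell by 0.14 (edgeR adjusted p = 0.0235). CBLB, a ubiquitin ligase of activated receptors, rose by 0.25 (SE 0.045, edgeR adjusted p = 0.00484). Each of these 4 calls was lost under at least 1 alternative (highest adjusted p of 0.244 for CD9, 0.145 for SOS2, 0.163 for MAP2K2 and 0.0913 for CBLB). Neither ADAM17 nor ADAM10 passed in these comparisons, and the log2 values of ADAM17 lay between −0.07 and 0.03.

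The 10 genes whose transcription follows ERK activity formed the list of outputs of the pathway. Their median log2 fold change after 6 weeks was 0.03 at 0.01 µM, 0.03 at 0.1 µM and 0.01 at 1 µM. After 12 weeks it was −0.08, −0.31 and −0.28, beside medians over all genes of 0.00235, −0.00475 and −0.00413. The list was chosen with earlier results of these data known, so this is a description only. Without replicate 3 of the 12-week control, values at 0.1 µM moved from −0.42 to −0.35 for DUSP4, −0.35 to −0.18 for ETV5 and 0.32 to 0.35 for EPHA4. PHLDA1 and SPRY2 are given below. At 12 weeks 2 of 10 passed at 0.1 µM (1.07% of all genes) and 1 of 10 at 1 µM (0.22%), all lower, and at 6 weeks 1 of 10 passed at 1 µM (0.28%), which was higher.

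PHLDA1, which encodes a pleckstrin homology-like protein induced by growth factors, behaved differently at the 2 times. At 6 weeks it was 47.9, 43.4, 43.7 and 36.6 CPM in the control and 58.6, 53.7, 54.4 and 52.8 CPM at 1 µM, all above the control as 3.23% of all genes were (log2 0.35, SE 0.058, edgeR adjusted p = 0.00295). At 12 weeks it was 41.3, 31.2, 51.2 and 45.5 CPM in the control and 27.5, 28.1, 29.2 and 24.3 CPM at 0.1 µM, all below as 3.86% of all genes were (log2 −0.64, SE 0.133, edgeR adjusted p = 0.0309). At 1 µM and 12 weeks it was 36.4, 34.8, 27.8 and 27.9 CPM, which overlaps the control, and did not pass (log2 −0.42, SE 0.131, edgeR adjusted p = 0.317). At 0.01 µM and 12 weeks it did not pass either (log2 −0.31, SE 0.130, edgeR adjusted p = 0.574). The difference between the times passed at the 2 higher doses, −0.72 at 0.1 µM (edgeR adjusted p = 0.0428) and −0.77 at 1 µM (edgeR adjusted p = 0.0266). Each PHLDA1 call was lost under at least 1 alternative, with highest adjusted p of 0.298 and 0.248 for the calls at 6 and 12 weeks and 0.565 and 0.443 for the differences. Without replicate 3 of the 12-week control the call at 12 weeks was lost (log2 −0.53, edgeR adjusted p = 0.104), as were the differences at 0.1 µM (log2 −0.61, edgeR adjusted p = 0.104) and 1 µM (log2 −0.67, edgeR adjusted p = 0.0662).

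SPRY2, an inhibitor of receptor signals to RAS that is itself induced by ERK, was 44.7, 39.5, 44.2 and 41.3 CPM in the control at 12 weeks. At 1 µM it was 29.7, 30.8, 30.7 and 32.6 CPM, all below the control as 3.34% of all genes were (log2 −0.46, SE 0.058, edgeR adjusted p = 0.000338). This call held in every alternative (highest adjusted p 0.0331). At 0.1 µM it fell by 0.27 (SE 0.058, edgeR adjusted p = 0.0241), with a highest adjusted p of 0.423 over the alternatives. At 0.01 µM it was 35.5, 36.5, 36.3 and 36.4 CPM, also below every control as 1.42% of all genes were. It did not pass there (log2 −0.23, SE 0.058, edgeR adjusted p = 0.473). Without replicate 3 of the 12-week control SPRY2 still passed at 1 µM (log2 −0.43, edgeR adjusted p = 0.00331) and did not at 0.1 µM (log2 −0.25, edgeR adjusted p = 0.129). The control itself rose in SPRY2 between 6 and 12 weeks by 0.25 (edgeR adjusted p = 0.000856), while at 1 µM the difference over time was −0.05 (edgeR adjusted p = 0.534), and the interaction at 1 µM did not pass (log2 −0.30, SE 0.083, edgeR adjusted p = 0.140). DUSP4, a phosphatase of ERK, was lower at 0.01, 0.1 and 1 µM at 12 weeks by 0.44, 0.42 and 0.40 on the log2 scale. It did not pass (edgeR adjusted p of 0.521, 0.109 and 0.261). EPHA4, an ephrin receptor, had the opposite sign, with log2 differences of 0.17, 0.32 and 0.37 at these doses (edgeR adjusted p of 0.768, 0.313 and 0.466). CCND1, EPHA2, SPRY4, DUSP6, ETV4 and ETV5 did not pass in these comparisons.

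**Figure D4:**
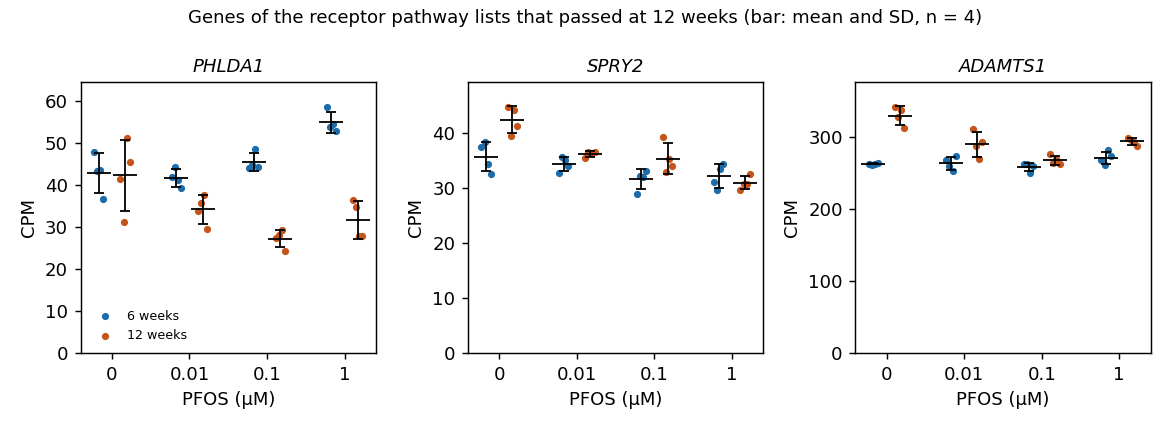
CPM of PHLDA1, SPRY2 and ADAMTS1 (vertical axes from 0) against PFOS dose, with each library as a point, 6 weeks in blue and 12 weeks in orange, and black bars for the mean and SD of n = 4. SPRY2 at 1 µM and 12 weeks lies at 29.7 to 32.6 CPM, below the control of that time at 39.5 to 44.7 CPM.

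The genes of the ovulatory response were the other list. Of 13 genes, 9 had values. TNFAIP6, a matrix protein of the expanding cumulus, had at most 2 counts in a library, and PTGS2 and HAS2 had no values. ADAMTS1, the protease that cleaves versican in the ovulating follicle, was expressed at 77.4 to 104 TPM. At 12 weeks it was 342, 328, 338 and 312 CPM in the control and 276, 264, 270 and 263 CPM at 0.1 µM, all below as 3.86% of all genes were (log2 −0.30, SE 0.047, edgeR adjusted p = 0.0027). At 0.01 µM it was 311, 287, 269 and 293 CPM, and at 1 µM 299, 296, 294 and 288 CPM. These libraries too lay below every control, as 1.42% and 3.34% of all genes did, but ADAMTS1 did not pass there. The decrease thus did not order by dose. The difference between the times passed at 0.1 µM (log2 −0.28, SE 0.055, edgeR adjusted p = 0.0194). Over the alternatives the highest adjusted p was 0.0776 for the call and 0.170 for the difference, and without replicate 3 of the 12-week control both still passed (0.0182 and 0.0342). In the control ADAMTS1 rose between 6 and 12 weeks by 0.33 (edgeR adjusted p = 3.23e-08), and at 0.1 µM the difference over time was 0.05 (edgeR adjusted p = 0.307). RUNX1, a transcription factor of the ovulatory follicle, rose by 0.12 at 0.1 µM and 6 weeks (SE 0.034, edgeR adjusted p = 0.0386, highest 0.194 over the alternatives).

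As a description of likeness, the genes whose log2 CPM correlated best with each expressed member over the 32 libraries were read off, with no test. ERRFI1 was most like B4GALT1 (Pearson's r 0.887) and TNFAIP3 (0.886), where 99% of all genes lay below 0.765. EGFR was most like THSD4 (0.917) and NID1 (0.914), with 99% of all genes below 0.846. ERBB2 was most like NUP210 (0.903, 99% below 0.814). HBEGF was most like ACTN1 (0.816, 99% below 0.575) and ERBB3 most like CCDC146 (0.782, 99% below 0.606). These points share culture time and vial, and between EGFR and ERBB2 the same measure was −0.534, which was 0.199 once the mean of each group was removed. ERRFI1 and HBEGF had −0.0912 over the 32 libraries and −0.581 within groups.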

How the data were processed

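Stranded poly(A) libraries of HGrC1 RNA were sequenced by the authors on a DNBSEQ platform. The authors removed adaptor and low-quality reads, aligned the rest to GRCh38.p14, and deposited expected counts and TPM per gene. The submitters' processing notes name HISAT2 2.0.4, Bowtie2 2.2.5 and RSEM 1.2.8. The deposited expected counts (not normalized, 7.68% of all values not whole) were rounded to whole numbers before testing. Levels were compared between genes on the deposited TPM scale of the authors. The deposited FPKM and normalized values, and the authors' own comparisons, were not used here, and 0 sample columns were left unmapped. Reads were assigned to genes by the authors' estimate, which can split reads between genes that share sequence, and at most a few counts of the sparse ligands can be told from 0.

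Groups and replicates came from the sample labels. Members and gene lists were chosen with earlier results of these data known, and so were the tests. Total counts per library were 17907057 to 18553350. The test was edgeR's quasi-likelihood test (version 4.0.16, robust, with filterByExpr and TMM factors, two-sided, Benjamini-Hochberg over 12742 to 12988 genes) in R 4.3.3 with limma 3.58.1, within the 16 libraries of a time for comparisons of doses and over all 32 libraries for comparisons of times and interactions. CPM were computed with TMM factors. Single genes were also compared by exact two-sided permutation of mean log2(CPM + 1), whose smallest p is 0.0286. Intervals and count limits cover counting error or the spread between libraries within groups only. Tables were made in Python 3.11.15 (scipy 1.17.1, pandas 2.3.3, numpy 2.4.6). No sequence window was read beyond the RefSeq promoter table (GRCh38.p14).

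The fit was tested on simulated counts. For 0.1 µM against control, of 100 genes changed by 0.5 on the log2 scale 98 were recovered at 6 weeks (12796 genes, 10 false calls) and 91 at 12 weeks (12685 genes, 6 false calls), and of 100 changed by 1 all 100 were recovered at both times. Changes were planted only in genes above a set mean CPM, which ERBB3 did not reach. Against control, the tested members' log2 fold changes lay between −0.36 (HBEGF) and 0.22 (ERBB3), and recovery of changes of this size was not tested.

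Replicate numbers mark the vial by the labels' protocol, so they pair the samples. Same-numbered libraries had mean correlations of deviations from group means of 0.0495 to 0.083 over 6 pairs of groups at 6 weeks, −0.0927 to 0.152 over 6 pairs at 12 weeks (1 below 0) and −0.0339 to 0.104 across times. Alternatives were other size factors, DESeq2 1.42.0, other filters on low counts, the vial as replicate block, each vial left out, other sets of libraries in the fit, and the fit without replicate 3 of the control at 12 weeks. Genes named were the members, the listed pathway genes that passed, the markers, and the genes most like each member. The EGFR to ERBB2 ratio, ADAM17, ADAM10, ADAM9 and ADAM12, DUSP4 and EPGN were named after their values were seen.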

Additional observations from a re-analysis of the deposited data

Results flagged for a closer look

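ERRFI1 was the member whose response to 1 µM PFOS differed between the times by a test of the difference itself, the interaction over all 32 libraries in edgeR (adjusted p = 0.0277). It was higher than the control in 3 of 4 vials at 6 weeks and lower in 4 of 4 vials at 12 weeks. The call was lost when any 1 vial was left out, and also without replicate 3 of the 12-week control. Of the 40 sets of 4 values examined for a value far from its group (Dixon's 95% critical value, for which chance gives about 1 in 20), 0 held one. With only 4 values in a set, this check can miss such a value. It does not rate whole libraries, and replicate 3 of the 12-week control stood apart by its hepatocyte transcripts.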

How the results depend on the processing

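Of the 5 members tested, the number that passed at 0.1 µM and 6 weeks was 1 with DESeq2 in place of 0, and 0 to 1 when a vial was left out. At 0.1 µM and 12 weeks it was 0 without replicate 3 of the control in place of 1, and 0 whichever vial was left out. At 1 µM and 12 weeks it was 1 with DESeq2 and 1 with all 32 libraries in the fit, in place of 0. Between 12 and 6 weeks in the control it was 1 to 2 when a vial was left out. For the difference of the 1 µM effect between the times it was 2 with DESeq2, 0 without replicate 3 of the 12-week control and 0 to 1 when a vial was left out, where without vial 1 the member was ERBB2 (0.0476) in place of ERRFI1 (0.0541). The cause was not tested. With the replicate block that pairs the vials, 1 member passed for the 1 µM effect (ERRFI1, 0.0129), and the block moved no count of members by over 1.5 times. Of 37 member fold changes not given singly, 19 changed sign under some alternative and 0 of these were past the threshold. Of the 38 given, ERBB3 between the times at 0.1 µM changed sign, with log2 values from −0.0583 to 0.0414 when a vial was left out, and did not pass in any of them. AREG, EREG, BTC, TGFA and NRG1 had at most 9 counts in a library, so the depth limits what can be read from single libraries.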

Other observations

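Of the 10 genes that follow ERK activity, ETV5, a transcription factor of the ETS family, fell between 6 and 12 weeks in each group, by 0.37 on the log2 scale in the control (edgeR adjusted p = 0.0123), 0.62 at 0.01 µM, 0.85 at 0.1 µM (edgeR adjusted p = 9.25e-07) and 0.75 at 1 µM (edgeR adjusted p = 7.55e-06). EPHA4, an ephrin receptor, rose at each PFOS dose, by 0.67 at 1 µM (edgeR adjusted p = 0.000472), and its difference in the control was 0.31 (edgeR adjusted p = 0.0879). DUSP4 fell at each PFOS dose, by 0.53 at 0.01 µM (edgeR adjusted p = 0.000305) and 0.46 at 1 µM (edgeR adjusted p = 0.00216), and its difference in the control was 0.12 (edgeR adjusted p = 0.417). The interactions of these 3 genes with PFOS did not pass at any dose.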
